A study of Mus musculus with 24 samples.

Results

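The genes described here are 42 interferon-stimulated genes in mouse pancreatic stellate cells (PSC), the fibroblast-like cells that form much of the scar-like stroma of pancreatic cancer. They were chosen by gene name from a table of 53801 genes, and each of the 42 symbols matched 1 row. The list was drawn up with the FPKM values and co-culture differences of these libraries in view, so the counts below describe these genes and are no independent evidence that interferon-stimulated genes respond. All PSC came from pooled pancreata of young adult wild-type C57BL/6J mice of both sexes, and the cancer cells were KPC cells, 1 line from a mouse model of pancreatic cancer that carries p48-Cre, which acts in the pancreas, and mutant Trp53. In both models PSC grew on the upper side of a membrane with 1 µm pores. In the standard co-culture the KPC cells lay below it on the floor of the well, and in the inverse co-culture they had been seeded on its underside before the PSC, which extended the time both cell types spent together by 24 h. PSC alone were collected for RNA-seq after 24 h and 72 h, each co-culture with its own mono-cultured control PSC, which gave 8 groups of 3 biological replicates. Libraries were made from 450 ng RNA in the standard and 120 ng in the inverse model. Standard PSC and their controls were seeded in a low-glucose medium and moved to a second medium when the time count began. Inverse PSC and their controls were in that second medium from seeding. Model, RNA input and seeding medium therefore cannot be told apart. In such bulk samples, fewer cells of a type and less RNA per cell cannot be told apart either.

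Interferons are secreted proteins that warn neighbouring cells of viruses and other threats. Type I interferons bind the receptor chains Ifnar1 and Ifnar2, and type II interferon binds Ifngr1 and Ifngr2. JAK kinases then phosphorylate STAT proteins, which enter the nucleus. A complex that holds Stat2 and Irf9 binds the interferon-stimulated response element (ISRE), and STAT dimers bind the gamma-activated site (GAS). Fibroblasts, stellate cells among them, respond to both types and keep some of these genes on without a stimulus.

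The promoters are shown because interferon signalling reaches its target genes through these short elements. RefSeq (GRCm38.p6) gave a promoter window for 31 of the 42 genes. Over the 250 bases before the transcript start, the letters GAAANNGAAA, or TTTCNNTTTC on the other strand, stood in 16 of the 31 (51.6%), against 936 of 27025 genes with a window (3.46%). The GAS letters TTCNNNGAA stood in 10 of the 31 (32.3%) and in 2197 of all genes (8.13%). Of the 31 genes, 5 held both and 10 held neither, and a gene with several windows was counted when any of them held the letters. All 3 guanylate-binding protein genes and all 3 immunity-related GTPase genes with a window held the ISRE letters, as did Stat2, while Irf7, Irf9, Tap1 and Psmb9 held neither motif. In the windows printed here, 5′ to 3′ on the gene's strand and ending at the base before the start, capitals mark these letters, overlapping matches run together:
Isg15, chr4:156200819-156201068, minus strand: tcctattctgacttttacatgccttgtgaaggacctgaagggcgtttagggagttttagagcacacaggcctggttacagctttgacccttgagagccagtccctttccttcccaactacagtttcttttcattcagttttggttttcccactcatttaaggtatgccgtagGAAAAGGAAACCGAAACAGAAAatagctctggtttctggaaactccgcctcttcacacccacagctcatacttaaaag
Ifit3, chr19:34583279-34583528, plus strand: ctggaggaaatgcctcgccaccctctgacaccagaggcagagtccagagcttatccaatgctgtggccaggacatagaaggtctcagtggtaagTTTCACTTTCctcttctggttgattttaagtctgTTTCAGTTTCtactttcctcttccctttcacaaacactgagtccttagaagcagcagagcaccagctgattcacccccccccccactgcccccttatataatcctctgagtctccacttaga
Gbp3, chr3:142559794-142560043, plus strand: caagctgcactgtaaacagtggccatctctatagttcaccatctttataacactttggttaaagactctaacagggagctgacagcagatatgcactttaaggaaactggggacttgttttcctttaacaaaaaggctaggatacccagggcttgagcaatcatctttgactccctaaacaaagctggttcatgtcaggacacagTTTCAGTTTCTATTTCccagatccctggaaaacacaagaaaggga
Irf1, chr11:53769764-53770013, plus strand: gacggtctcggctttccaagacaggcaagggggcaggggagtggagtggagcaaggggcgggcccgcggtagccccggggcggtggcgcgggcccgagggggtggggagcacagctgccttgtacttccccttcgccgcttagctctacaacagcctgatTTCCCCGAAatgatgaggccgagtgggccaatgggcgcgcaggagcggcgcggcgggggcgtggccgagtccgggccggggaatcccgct
Isg15, which encodes a ubiquitin-like modifier, had 3 overlapping matches, the first 78 bases before the start. Ifit3 and Gbp3 had 2 matches each, on the other strand, and Irf1, a transcription factor induced by type II interferon, had 1 GAS match 90 bases before the start. A match is a description of the letters and no measured binding site.

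The members differed widely in level. Levels are FPKM, fragments scaled to transcript length and to the number of mapped fragments in the library. Of the 42 genes, 24 were above 1 FPKM in every library and 3 (Oas3, Mx1 and Rsad2) in none. Ly6e, a lipid-anchored surface protein, was the highest with a mean of 155 FPKM over the 24 libraries (88.0 to 251), followed by Bst2, which tethers budding virus particles, at 77.1 FPKM and Samhd1, which hydrolyses deoxynucleotides, at 50.03 FPKM. Mx1, of which many inbred mouse strains carry a defective allele, was the lowest at 0.0702 FPKM and was listed at 0 in 14 of the 24 libraries. The kinase gene Eif2ak2 had a mean of 24.2 FPKM and the 4 transcription factor genes ranged from 9.37 FPKM for Irf7 through 14.9 for Irf9 and 20.4 for Stat2 to 21.6 for Irf1. In all, 7 members had a mean under 1 FPKM, among them the virus-restricting Mx1, Mx2 and Rsad2. A gene entered a comparison when it was above 1 FPKM in at least 3 of its libraries. A gene that is low in 1 group can thus enter through the group where it is high. Besides the 3 genes above, Ifit3b, Ifi44, Mx2 and Cmpk2 missed this limit in the comparisons of co-culture with control, except that Mx2 was tested at 72 h in the standard model. Values are uncertain where reads can belong to several genes: Gbp7, Rtp4, Trim30a and Ifit1 share 8.77%, 6.92%, 3.24% and 1.24% of their 150-base stretches with other genes, and Tap1 with Psmb9, Parp9 with Dtx3l and Igtp with Irgm2 overlap in position.

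Counted fragments per library ranged from 15932737 to 24798761, with a median of 18860269. Of 15 stellate and fibroblast markers, 13 were above 1 FPKM in at least 1 library, while Gfap and Lrat were not in any. The list mixes markers of stellate cells and of fibroblasts in general, so it does not tell the 2 apart. Lymphoid markers summed to at most 0.80 FPKM in any library. Over the 24 libraries endothelial markers summed to 138 to 260 FPKM and dendritic markers to 0.14 to 5.18 FPKM. Sums of the macrophage, adipocyte, epithelial, acinar and mesothelial lists are given beside some of the results. The libraries of replicate 1 stood apart in the standard model, and replicate 1 of the inverse 24 h co-culture stood apart from the other 23. Over the 39 members that passed the filter across all libraries, the mean log2(FPKM + 0.5) was 1.66 to 2.16 in the 4 standard libraries of replicate 1 and 2.66 to 3.67 in the 8 of replicates 2 and 3. Replicate 1 was the lowest of its group in all 4 standard groups for 30 of the 39 members, against 17.6% of all genes. The 7 adipocyte markers summed to 23.8 to 84.2 FPKM in the 4 standard libraries of replicate 1 and 159 to 525 FPKM in the other 8, and the 6 mesothelial markers to 13.4 to 24.6 FPKM and 33.8 to 49.2 FPKM, so that both lists were lowest in the same libraries as the members. Their part in the members' levels was not tested. The inverse 24 h co-culture replicate 1 had a mean of 3.96 and held the highest value of all 24 libraries for 22 of the 39 members, against 7.11% of all genes.

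**Figure D1:**
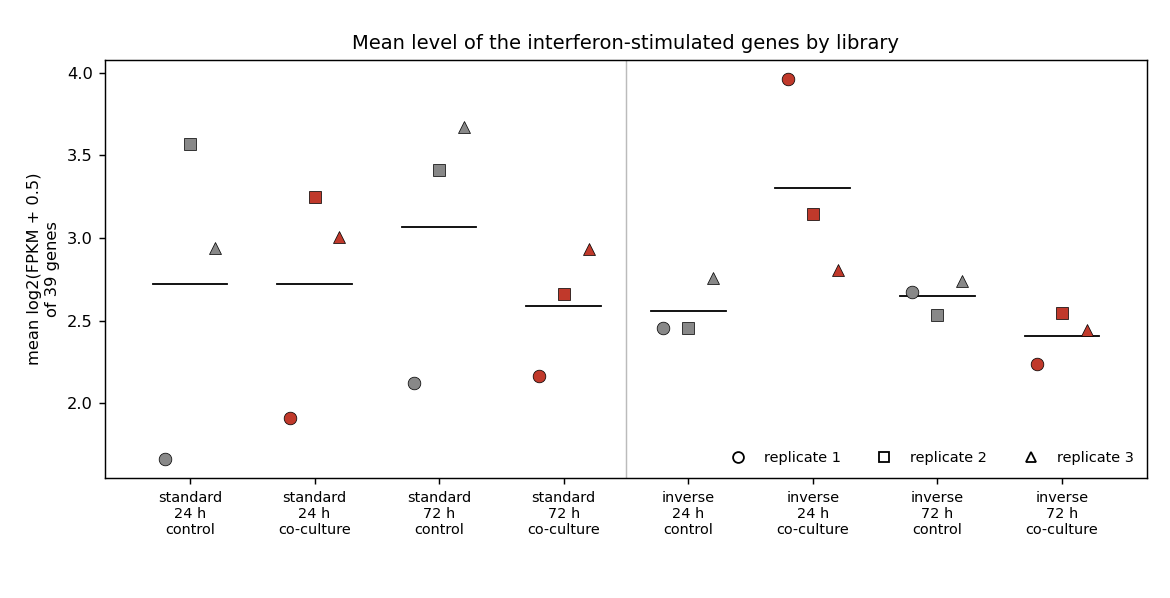
Mean log2(FPKM + 0.5) of 39 interferon-stimulated genes (y axis) in each of the 24 libraries, by group (x axis). Points are libraries, with shape for the replicate number, red for co-culture and grey for control, and lines are group means of 3 libraries. Replicate 1 is the lowest point of each standard group, and the highest point of all, at 3.96, is replicate 1 of the inverse 24 h co-culture.

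**Figure D2:**
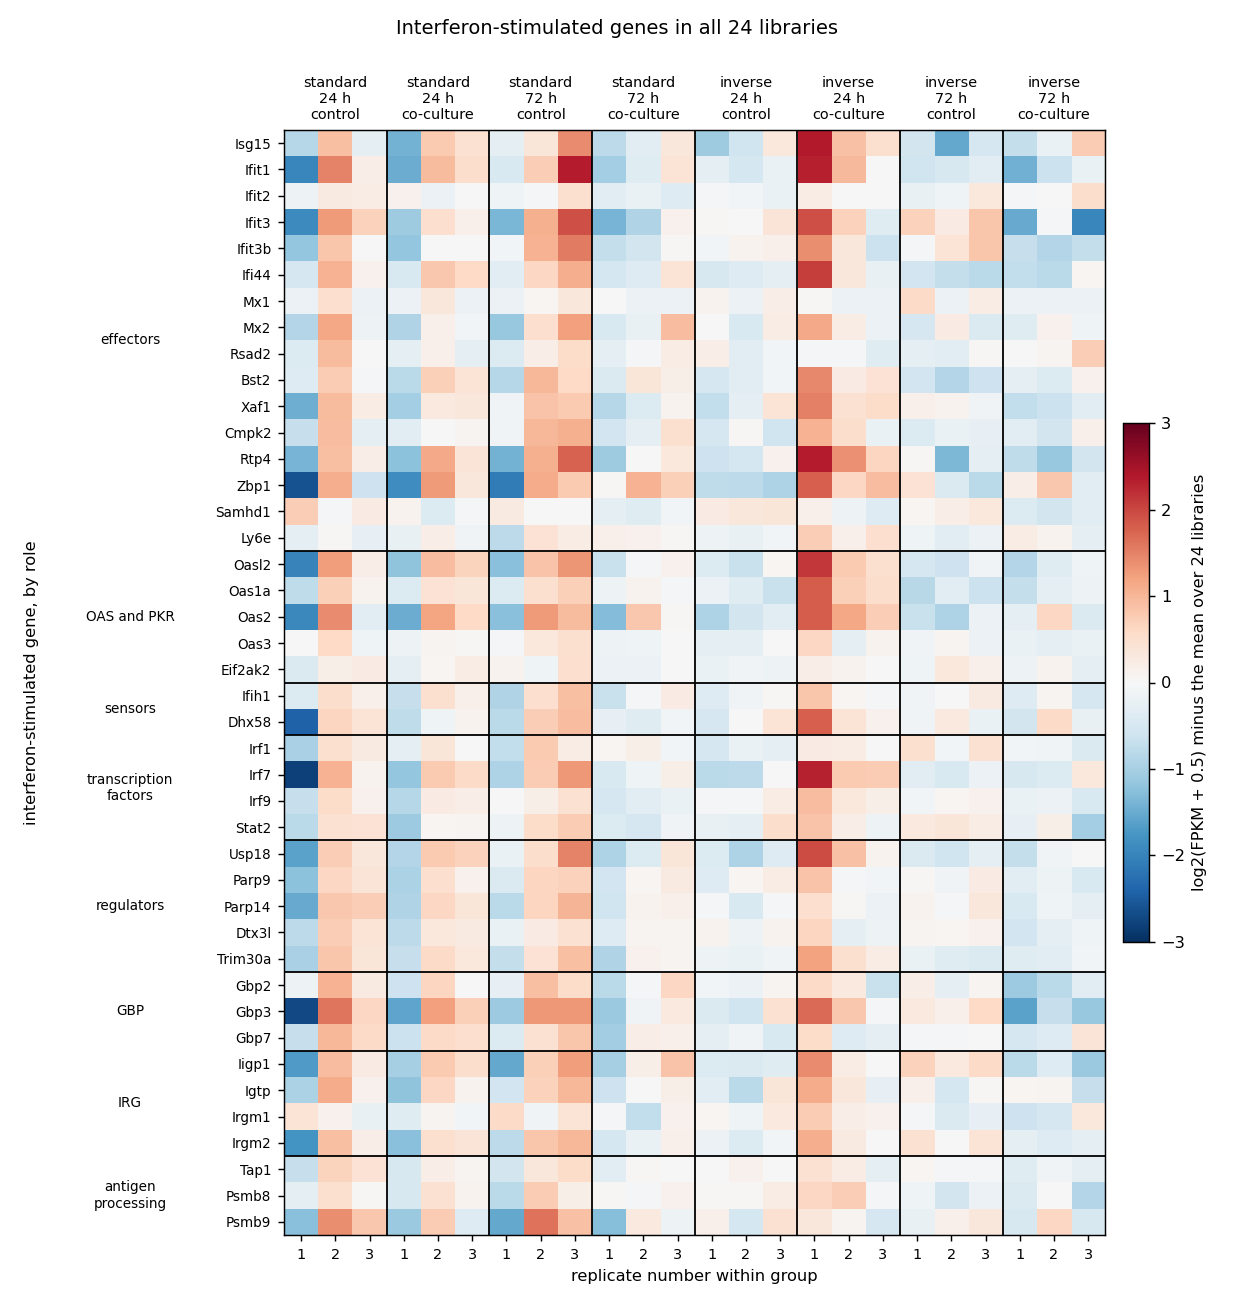
All 42 interferon-stimulated genes (rows, by role) in all 24 libraries (columns, by group and replicate number). Colour is log2(FPKM + 0.5) minus the gene's mean over the 24 libraries, red above and blue below it. The red column of the inverse 24 h co-culture replicate 1 and the blue columns of the standard replicate 1 run through most roles, with Samhd1 and Ifit2 among the rows that vary least.

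After 24 h, interferon-stimulated genes stood mostly higher in PSC of the inverse co-culture than in control PSC, and 2 of them rose by the test. The comparison asks what PSC do early when cancer cells grow close by, on the far side of the membrane. Zbp1 (chromosome 2, 173206612 to 173218923, minus strand, GRCm38), which senses Z-form nucleic acids and can start cell death, was at 1.70, 1.65 and 1.46 FPKM in the controls and at 12.3, 5.25 and 6.58 FPKM in the co-cultures. No control overlapped a co-culture, and the co-cultures rested on 215 to 542 fragments and the controls on 50 to 83. Its log2 fold change was 1.94 (SE 0.29, 3.83-fold, adjusted p = 0.0159, limma). Oas2 (chromosome 5, 120730333 to 120749853, minus strand), an oligoadenylate synthetase that activates RNase L against viral RNA, was at 0.501, 0.790 and 1.01 FPKM in the controls and 6.15, 3.77 and 2.66 FPKM in the co-cultures. These groups did not overlap either, and the log2 fold change was 1.84 (SE 0.32, adjusted p = 0.0257, limma). No more than 1 of its controls was above 1 FPKM, so Oas2 entered the test through its co-cultures, where it was high. With no filter on low values no member passed, and over all genes 26 rose and 24 fell. Because 0.5 was added to each FPKM before logs were taken, low genes have smaller folds here than their plain ratios, and this holds for every log2 value below.

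Of the 35 members tested at 24 h in the inverse model, 2 rose and 0 fell, where 2.47% of all 12827 genes tested were called (1.08% up and 1.39% down). The sign was above 0 for 33 of the 35, and their median log2 fold change was 0.62, where the median of all genes was -0.06. An unadjusted p under 0.05 was reached by 18 of the 35, against 14.8% of all genes. The co-culture and control values did not overlap for 18 members with the co-culture higher, against 7.38% of all genes, and for 1 member, Samhd1, with the co-culture lower, against 13.8%.

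By role, the oligoadenylate synthetase and kinase genes had the highest median at 24 h, 1.44 over 4 genes, with Oasl2 at 1.47, Oas1a at 1.41 and Eif2ak2 at only 0.24. The 10 effectors tested had a median of 1.03. Among them Rtp4 had a log2 fold change of 1.79 (adjusted p = 0.0602), Isg15 of 1.69 (0.131) and Ifit1, which binds viral RNA, of 1.44 (0.204), all by limma. Isg15 was at 6.56, 9.28 and 18.03 FPKM in the controls and 76.3, 26.8 and 20.03 FPKM in the co-cultures, so the groups did not overlap but the third co-culture lay close to the third control. The 5 genes grouped as regulators (Usp18, Parp9, Parp14, Dtx3l and Trim30a) had a median of 0.30, led by Usp18, the protease that removes ISG15 and dampens the receptor, with 1.55. The 2 RNA sensors were at 0.43 (Ifih1) and 0.80 (Dhx58). The 3 guanylate-binding protein genes, GTPases that coat intracellular pathogens, had a median of 0.24, and the 4 immunity-related GTPase genes of 0.67. The 3 antigen-processing genes, Tap1 and the immunoproteasome subunits Psmb8 and Psmb9, lay between -0.05 and 0.34. Zbp1, Oas2, Irf7, Rtp4 and Isg15 thus stood at one end of the members and Dtx3l, Tap1, Psmb9 and Gbp2 near 0.

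The 4 transcription factor genes were all above 0 at 24 h in the inverse model and none passed the test. Irf7, the amplifier of type I interferon production, was at 3.96, 4.03 and 7.498 FPKM in the controls and 38.7, 13.1 and 12.9 FPKM in the co-cultures, which did not overlap (log2 fold change 1.82, SE 0.41, adjusted p = 0.0604, limma). Irf1 was at 14.4, 18.03 and 17.05 FPKM in the controls and 24.9, 24.2 and 20.7 FPKM in the co-cultures, also without overlap (0.48, SE 0.13, adjusted p = 0.118, limma). Irf9 was at 13.7, 13.9 and 16.8 FPKM in the controls and 28.0, 17.99 and 16.3 FPKM in the co-cultures, which overlapped. Stat2 overlapped as well, at 16.5, 15.8 and 28.1 FPKM in the controls and 35.2, 22.1 and 17.3 FPKM in the co-cultures.

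Samhd1 had the lowest log2 fold change of the members at 24 h, at 58.5, 62.2 and 63.0 FPKM in the controls and 54.2, 44.0 and 37.2 FPKM in the co-cultures (log2 fold change -0.45, SE 0.14, adjusted p = 0.158, limma). Ly6e lay the other way, at 137, 131 and 144 FPKM in the controls and 251, 169 and 215 FPKM in the co-cultures (0.61, SE 0.14, adjusted p = 0.0661, limma). Both pairs of groups were free of overlap, although neither gene passed the test.

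The size of the 24 h differences rested in part on replicate 1 of the inverse co-culture, which was the highest of its group for 38 of 39 members, against 45.3% of all genes. Without it, the median log2 fold change was 0.31, 28 of 35 members were above 0, 3 rose (Zbp1 1.60, Oas2 1.56 and Irf7 1.31) and Samhd1 fell by 0.59. Over all genes that fit called 124 up and 188 down. Without control replicate 1, 2 or 3, 0 members passed, where over all genes 39, 40 and 38 rose and 32, 33 and 29 fell. Without co-culture replicate 3 there were 10 members that rose, where over all genes 193 rose and 219 fell. Epithelial markers summed to 9.62, 52.1 and 13.2 FPKM in the co-cultures and 6.98 to 8.61 FPKM in the controls, with the highest sum in replicate 2. Adipocyte markers summed to 219, 140 and 95.1 FPKM and acinar and endocrine markers to 20.1, 7.38 and 10.7 FPKM in the co-cultures, both highest in replicate 1, against 175 to 268 FPKM and 9.48 to 15.2 FPKM in the controls. Mesothelial markers were higher in the co-cultures without overlap, at 31.5, 30.6 and 33.8 FPKM against 20.3 to 24.6 FPKM. Macrophage markers summed to 96.6, 83.2 and 28.4 FPKM in the co-cultures and 82.3 to 91.8 FPKM in the controls, and of the 8 tested 0 were called, as was also the case for the 6 adipocyte, 3 epithelial, 1 acinar and 1 mesothelial markers tested. The part of any of these cells in the members' values was not tested.

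After 72 h in the inverse co-culture no member rose and 4 fell. Samhd1 (chromosome 2, 157097533 to 157135265, minus strand) was at 51.0, 55.9 and 61.2 FPKM in the controls and 36.5, 33.3 and 38.5 FPKM in the co-cultures (log2 fold change -0.62, SE 0.11, adjusted p = 0.0138, limma). Gbp3 (chromosome 3, 142560026 to 142573209, plus strand) was at 7.82, 7.04 and 9.91 FPKM in the controls and 1.74, 3.73 and 2.63 FPKM in the co-cultures (-1.49, SE 0.26, adjusted p = 0.0140, limma). Iigp1, a GTPase that attacks the membranes around intracellular parasites, was at 6.67, 4.96 and 6.10 FPKM in the controls and 2.05, 2.92 and 1.55 FPKM in the co-cultures (-1.28, SE 0.24, adjusted p = 0.0172, limma). In each of the 3 genes every co-culture lay under every control. Ifit3 (chromosome 19, 34583531 to 34588731, plus strand) was at 5.13, 3.65 and 5.71 FPKM in the controls and 0.716, 2.86 and 0.399 FPKM in the co-cultures, again without overlap (-1.77, SE 0.48, adjusted p = 0.0492, limma). Ifit3 shares 18.5% of its 150-base stretches of transcript with Ifit3b, so its value is uncertain where reads could not be placed, and the lowest co-culture value rested on 13 fragments. Ifit3 entered the test through its controls, as its co-culture values of 0.716 and 0.399 FPKM were under the limit of 1 FPKM.

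Of the 35 members tested at 72 h in the inverse model, 0 rose and 4 fell, where 12.8% of 13066 genes were called (3.27% up and 9.57% down). The share of members that fell was thus near that of all genes. Only 10 of the 35 were above 0, and the median of -0.22 was close to that of all genes, -0.16. The groups did not overlap for 14 members with the co-culture lower, against 28.8% of all genes, and for 1, Bst2, with the co-culture higher, against 9.53%. An unadjusted p under 0.05 was reached by 13 of the 35, against 32.2% of all genes. Where libraries were scaled by the median of gene ratios, the median of all genes moved to -0.01 and that of the members to -0.07. With that scaling the calls were 3 members down and 1 up (Bst2, 0.66), and over all genes 746 up and 686 down in place of 427 and 1251.

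By role, all 3 guanylate-binding protein genes and all 4 immunity-related GTPase genes were below 0 at 72 h, with medians of -0.74 and -0.34. The 3 antigen-processing genes lay between -0.24 and -0.15. Above 0 were Isg15 (0.81), Oas2 (0.56), Zbp1 and Bst2 (both 0.50) and Ly6e (0.22), none of which passed the test. Bst2 was nearest, at 47.1, 37.8 and 45.2 FPKM in the controls and 56.8, 52.5 and 76.5 FPKM in the co-cultures, without overlap (adjusted p = 0.0785, limma). Of the transcription factors, Irf1 was at 29.3, 19.7 and 28.6 FPKM in the controls and 19.6, 19.3 and 15.2 FPKM in the co-cultures (-0.50, adjusted p = 0.109, limma), Stat2 at -0.66, Irf9 at -0.31 and Irf7 at 0.15.

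Some markers of other cells also differed between the groups at 72 h. The 15 macrophage markers summed to 240, 139 and 278 FPKM in the controls and 88.9, 91.5 and 62.2 FPKM in the co-cultures, and 6 of the 9 tested fell (Lyz2, Adgre1, C1qa, Csf1r, C1qb and Cd14). The 7 adipocyte markers summed to 910, 425 and 825 FPKM in the controls and 63.4, 108 and 27.5 FPKM in the co-cultures, and 5 of the 6 tested fell. Of the 3 epithelial markers tested, only Krt19, a keratin of ductal and cancer cells, was above 0, and their median was -0.13 (all genes -0.16). Krt19 rose from 0.176, 0.116 and 0 FPKM to 1.83, 1.17 and 3.11 FPKM (2.03, SE 0.40, adjusted p = 0.0189, limma), while the sums of the 12 listed overlapped. All its controls were under 1 FPKM, so Krt19 entered the test only through the co-cultures, where it was high. Of the acinar and endocrine markers, only Cela1 was tested, and it fell by 0.56 (SE 0.12, adjusted p = 0.0243, limma), with sums of 18.1, 15.3 and 15.8 FPKM in the controls and 10.8, 11.1 and 10.7 FPKM in the co-cultures. The part of any of these cells in the values of the 4 genes was not tested. Without control replicate 3, 0 of the members passed the test at 72 h, and Samhd1, Gbp3, Iigp1 and Ifit3 then stood at -0.56, -1.36, -1.26 and -1.65. Over all genes that fit called 138 up and 230 down. Without control replicate 1, 1 member passed, where over all genes 175 rose and 339 fell. Without co-culture replicate 1, 1 member passed, where over all genes 119 rose and 384 fell.

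**Figure D3:**
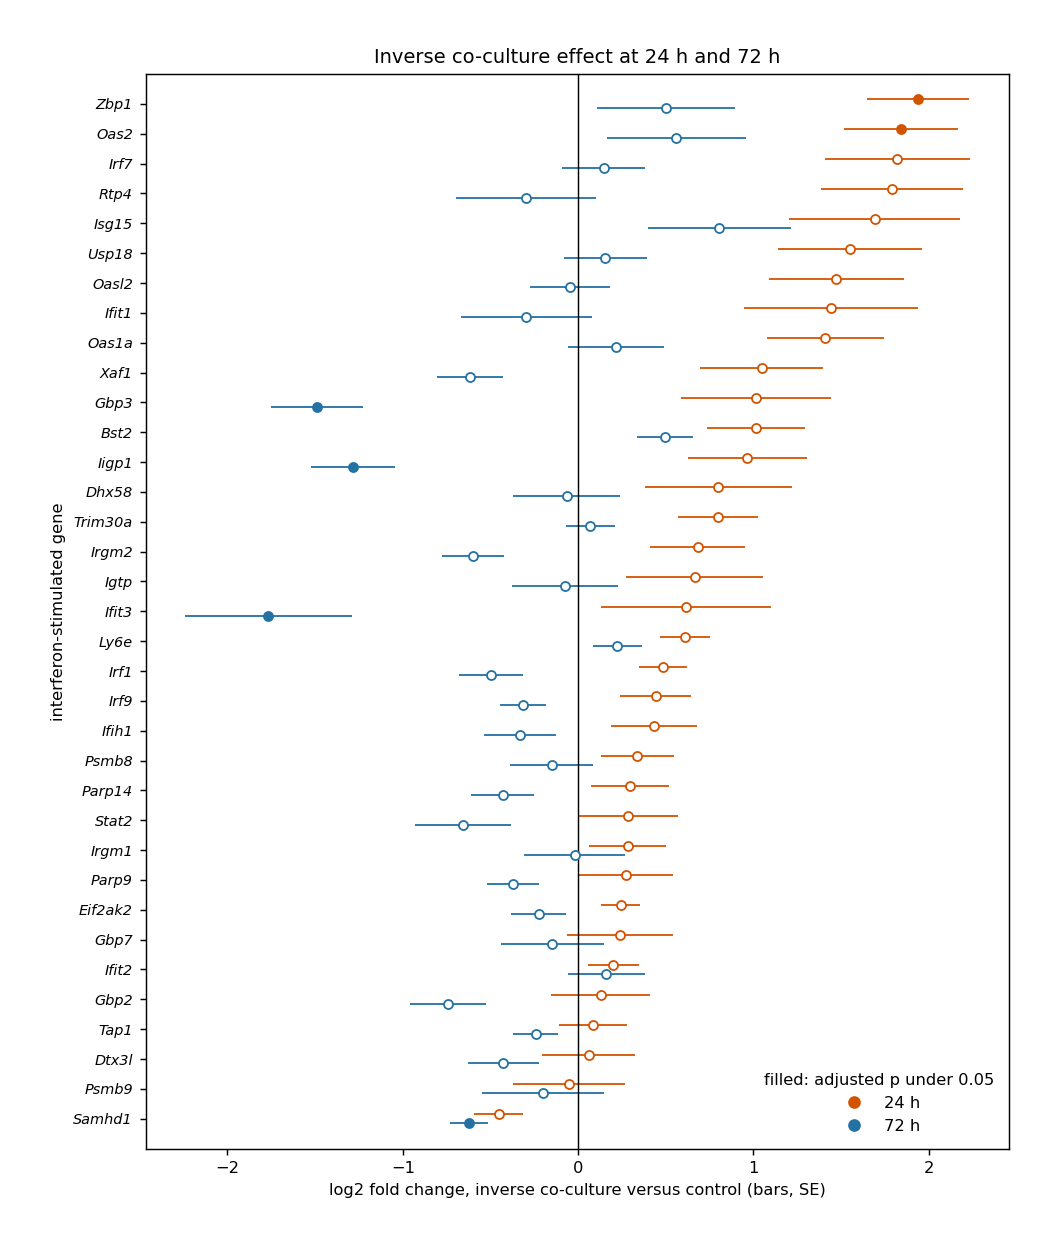
Log2 fold change of inverse co-culture against control (x axis) for each of 35 interferon-stimulated genes (y axis), at 24 h (orange) and 72 h (blue). Points are estimates from 3 against 3 libraries, bars are 1 SE, and filled points have an adjusted p under 0.05. For every gene drawn, the blue point lies to the left of the orange one.

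The difference between the 2 inverse time points was tested directly. Of the 35 members, 23 were above 0 at 24 h and below 0 at 72 h, 10 were above 0 at both times and 2, Samhd1 and Psmb9, were below 0 at both. The 72 h effect minus the 24 h effect was below 0 for all 35 members, with a median of -0.86, where that of all genes was -0.09. No member passed the test (limma, nor limma-voom), and of all 13722 genes 0% did. An unadjusted p under 0.05 was reached by 20 of the 35, against 10.7% of all genes. The smallest adjusted p was 0.121, for Iigp1 (-2.25, SE 0.45), followed by 0.167 for Gbp3 (-2.51, SE 0.57) and 0.178 for Irf1 (-0.98, SE 0.23). Without the 24 h co-culture replicate 3 there were 2 members that passed, and without the 72 h control replicate 2 there was 1. Controls entered this difference too. From 24 h to 72 h in mono-cultured control PSC of the inverse model, Iigp1 rose from 2.82, 2.77 and 2.92 FPKM to 6.67, 4.96 and 6.10 FPKM (0.93, SE 0.17, adjusted p = 0.00764, limma) and Irf1 rose by 0.62 (SE 0.17, adjusted p = 0.0341, limma). These were 2 of 34 members tested, where 19.2% of all genes were called, 10.2% up and 9.05% down. With each library left out in turn Iigp1 passed throughout, at 0.85 to 1.04, whereas Irf1 passed only without the 72 h control replicate 2, at 0.52 to 0.80. Macrophage marker sums were 82.3 to 91.8 FPKM in these controls at 24 h and 139 to 278 FPKM at 72 h. Adipocyte marker sums were 175 to 268 FPKM at 24 h and 425 to 910 FPKM at 72 h, and the part of either cell type in these differences was not tested.

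**Figure D4:**
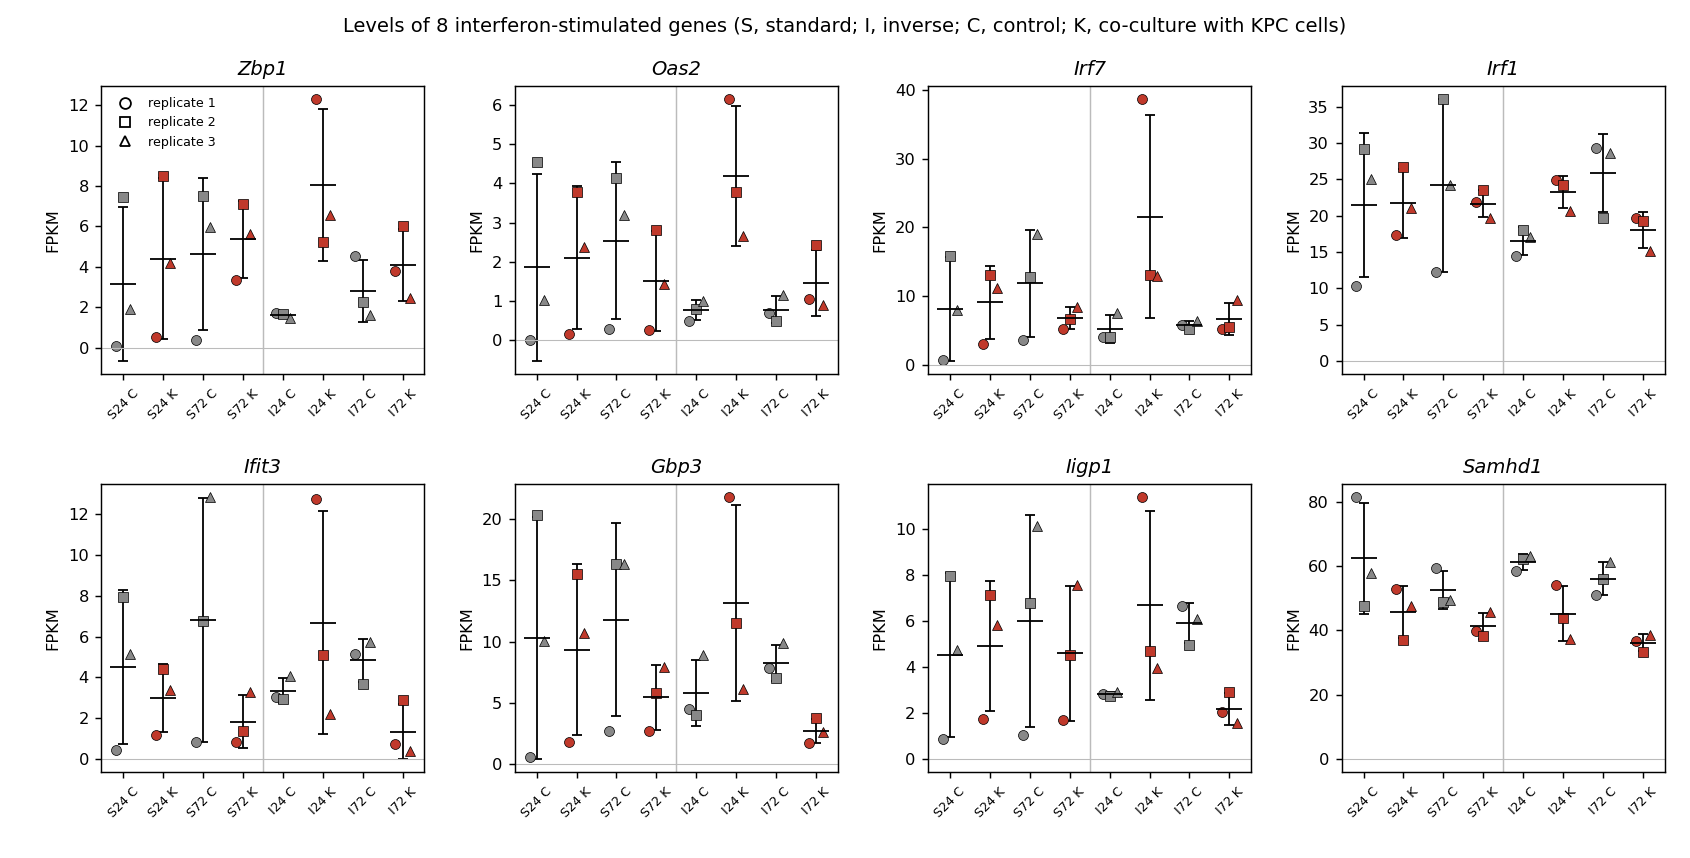
FPKM (y axis) of 8 interferon-stimulated genes in the 8 groups (x axis; S, standard; I, inverse; C, control; K, co-culture with KPC cells; 24 or 72 h). Points are libraries, with shape for the replicate number, and lines are the mean with 1 SD of 3 libraries. In the inverse groups control and co-culture points do not overlap for Zbp1, Oas2, Irf7, Irf1, Iigp1 and Samhd1 at 24 h, nor for Irf1, Ifit3, Gbp3, Iigp1 and Samhd1 at 72 h, and replicate 1 is the lowest point of most standard groups except for Samhd1.

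In the standard co-culture no member was called at either time. At 24 h, 35 members were tested, 0% of 12859 genes were called, and 17 of the 35 members were above 0, with a median of -0.003 (all genes -0.01). None reached an unadjusted p under 0.05, against 2.89% of all genes, and none passed with limma-voom. The groups did not overlap for 0 members in either direction, against 3.35% of all genes with the co-culture higher and 4.38% with it lower. Zbp1 was at 0.108, 7.44 and 1.92 FPKM in the controls and 0.524, 8.50 and 4.19 FPKM in the co-cultures (0.63). Irf7 was at 0.628, 15.8 and 7.91 FPKM in the controls and 3.00, 13.1 and 11.2 FPKM in the co-cultures (0.61). In both genes replicate 1 was the lowest of its group in control and co-culture alike, and the spread between replicates was far wider than the difference. Psmb9 had the log2 fold change furthest below 0, at 0.794, 7.51 and 4.88 FPKM in the controls and 0.912, 4.68 and 1.85 FPKM in the co-cultures (-0.56). With the replicate number as a block, which the shared deviations of same-numbered standard libraries call for, 85 genes rose and 72 fell over all genes, and again no member passed (smallest adjusted p = 0.0968, for Samhd1, limma). The 24 h median moved from 0.36 without co-culture replicate 1 to -0.51 without control replicate 1, and was -0.12 without replicate 1 in both.

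In the standard model the study's own DESeq2 comparisons called genes at both 24 h and 72 h. At 72 h, 36 members were tested here, 0% of 12863 genes were called in the fit without the block, and 3 of the 36 members were above 0. Their median was -0.48, where that of all genes was -0.09. With 1 library left out it lay between -0.89, without control replicate 1, and -0.18, without control replicate 3, and it was -0.25 without co-culture replicate 1 and -0.30 without control replicate 2. An unadjusted p under 0.05 was reached by 4 (Irf9, Stat2, Samhd1 and Xaf1), against 6.22% of all genes. No member passed with limma-voom or with the block. The share of all genes called in those fits is not given here, so nothing about the members is drawn from this. Irf9 was at 14.2, 16.2 and 20.01 FPKM in the controls and 10.0, 11.3 and 12.5 FPKM in the co-cultures, without overlap (-0.55, SE 0.17, adjusted p = 0.736, limma). Stat2, its partner, was at 17.3, 28.2 and 32.7 FPKM in the controls and 14.3, 13.5 and 17.9 FPKM in the co-cultures, with a slight overlap (-0.72, SE 0.26, adjusted p = 0.759, limma). Samhd1 and Ifit2 were the other 2 of the 3 members with every co-culture under every control, against 9.78% of all genes, and 0 members had every co-culture above every control, against 3.36%. Samhd1 was at 59.4, 48.6 and 49.4 FPKM in the controls and 39.8, 38.2 and 45.8 FPKM in the co-cultures.

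The 3 largest log2 fold changes at 72 h in the standard model were those of Ifit3, Ifit1 and Usp18. Ifit3 was at 0.846, 6.75 and 12.9 FPKM in the controls and 0.816, 1.36 and 3.29 FPKM in the co-cultures (-1.27). Ifit1 was at 1.33, 3.69 and 12.5 FPKM in the controls and 0.755, 1.48 and 2.87 FPKM in the co-cultures (-1.19). Usp18 was at 4.45, 7.64 and 15.4 FPKM in the controls and 2.44, 3.77 and 6.74 FPKM in the co-cultures (-0.94). In all 3 genes the groups overlapped and control replicate 3 was the highest, while the co-culture was under the control of the same number in 3 of 3 pairs. Without replicate 1 in both groups, 0 of 36 members were above 0 and the median was -0.57. Macrophage markers summed to 454 to 1526 FPKM in the 4 standard libraries of replicate 2 and 43.0 to 205 FPKM in the other 8, and their part in the spread between replicates was not tested, nor was that of the adipocyte and mesothelial markers low in replicate 1.

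The co-culture effects of the 2 models were set against each other in a fit over all 24 libraries with 39 members tested. At 24 h the inverse minus the standard effect was above 0 for 38 of the 39, with a median of 0.63 (all genes -0.05), and at 72 h for 26 of the 39, with a median of 0.23 (all genes -0.07). No member passed the test at either time with limma or limma-voom, and of all 14452 genes 0% did. Unadjusted, 1 member had a p under 0.05 at each time, Oas1a at 24 h (1.31, SE 0.53) and Ifit2 at 72 h (0.57, SE 0.26), against 1.26% and 3.47% of all genes. Oas1a shares 32.4% of its 150-base stretches with Oas1g, so its counts are uncertain. An effect past the limit in the inverse model only is therefore not shown to differ between the models.

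Between the mono-cultured controls of the 2 models 0% of all genes were called by limma at 24 h or 72 h. The median of the inverse minus the standard log2 level was -0.16 over 35 members at 24 h and -0.26 over 36 at 72 h. These medians depended on single libraries of the standard controls. At 24 h the median was -0.77 without replicate 1, 0.20 without replicate 2 and -0.03 without replicate 3, and at 72 h it was -0.76, -0.11 and -0.03. Leaving out 1 inverse control moved the 24 h median to between -0.26 and -0.08 and the 72 h median to between -0.31 and -0.23. No member had an unadjusted p under 0.05 at 24 h, against 1.74% of all genes. At 72 h, 3 members, Isg15 (-1.37), Usp18 (-1.05) and Oas1a (-0.86), had an unadjusted p under 0.05, against 6.18% of all genes. From 24 h to 72 h the standard controls had a median of 0.28 over 38 members, with 0 called, and 0% of all genes were called. This median changed sign with the libraries used: it was -0.20, 0.59 and 0.40 without replicate 1, 2 or 3 at 24 h, and 0.78, 0.12 and -0.01 without replicate 1, 2 or 3 at 72 h. The 2 times did not overlap for 0 members in either direction, against 1.74% of all genes with 72 h higher and 2.84% with it lower. The change of the standard co-culture effect over time had a median of -0.40 over 39 members, with 0 called, where again 0% of all genes were called. In neither of these did a member reach an unadjusted p under 0.05, against 0.98% and 1.03% of all genes, and with limma-voom none of the comparisons in this paragraph called a member.

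Upstream of the members, all 20 interferon genes searched, among them Ifnb1 and Ifng, were listed at 0 in every library. The nuclease gene Trex1, which most cells use, was also listed at 0 throughout, so these zeros are given only as listed, and no limit on the level of the interferon genes is drawn from them. Receptor chains were well expressed. Ifnar2 was at 36.2, 35.8 and 37.5 FPKM in the inverse controls and 60.1, 49.4 and 49.8 FPKM in the co-cultures at 24 h, and it rose by 0.53 (SE 0.11, adjusted p = 0.0482, limma). At 72 h it was at 40.4, 30.7 and 38.9 FPKM in the controls and 54.1, 57.7 and 55.7 FPKM in the co-cultures, a rise of 0.61 (SE 0.12, adjusted p = 0.0211, limma). Ifngr2 rose at 72 h in the inverse model by 0.57 (SE 0.14, adjusted p = 0.0411, limma), from 25.9 to 36.0 FPKM in the controls to 40.8 to 48.2 FPKM in the co-cultures. Both of these chains were higher without overlap, whereas Ifnar1 and Ifngr1 differed from their controls by -0.06 to 0.18 at the 2 inverse times and passed no test.

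Socs1, which blocks JAK kinases, was not called at 72 h in the inverse model (log2 fold change -1.04, adjusted p = 0.171, limma). The chemokine gene Cxcl10 reached 9.57 FPKM in a standard control and at most 1.17 FPKM in the inverse model, where it was not tested.

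Another list of 86 interferon-stimulated genes, of which 85 were in the table, was tested beside the members. In the inverse model 53 of 64 tested were above 0 at 24 h with a median of 0.24 (all genes -0.06) and 0 called, and at 72 h 14 of 62 were above 0 with a median of -0.29 (all genes -0.16). At 72 h, 6 of the 62 fell and 1 rose, where 9.57% of all genes fell and 3.27% rose, so that the share that fell was near that of all genes. Those that fell were Tapbp, Tap2 and Nlrc5 of antigen presentation, and Trafd1, Ifi35 and Sp100. Slfn9 rose by 1.07 (SE 0.28, adjusted p = 0.0468, limma). Tapbp, which loads peptide onto MHC class I, was at 158, 128 and 165 FPKM in the controls and 89.4, 93.8 and 61.0 FPKM in the co-cultures (-0.90, SE 0.18, adjusted p = 0.0206, limma). Nlrc5, the activator of MHC class I genes, was at 3.59, 3.54 and 1.73 FPKM in the controls and 0.719, 1.20 and 0.558 FPKM in the co-cultures (-1.36, SE 0.34, adjusted p = 0.0405, limma). In the standard model the medians were -0.07 over 68 genes at 24 h and -0.22 over 69 at 72 h, with 0 called at either time.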

How the data were processed

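RNA-seq of PSC was analysed in 24 libraries. Per the labels and the study's methods, reads were base-called with CASAVA, aligned to GRCm38 with HISAT2 2.0.5 and counted with featureCounts 1.5.0-p3 at default parameters, which make no use of strand, and the authors used DESeq2 1.20.0 for their own comparisons. The authors deposited FPKM values per gene, and no count table was used here. Gene symbols and positions came from the GENCODE M21 annotation (53706 of 53801 genes matched). Where gene lengths allowed it, FPKM gave back whole fragments for 95.0% to 96.0% of low values (tolerance 0.02 fragments), which gave the depth of each library and fragments for 37 of the 42 members.

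Values were compared as log2(FPKM + 0.5) with limma 3.58.1 (R 4.3.3), a moderated test with an intensity trend, two-sided, on genes above 1 FPKM in at least 3 libraries of the fit. P-values were adjusted by Benjamini-Hochberg over all genes tested, and an adjusted p under 0.05 was called. Co-culture was compared with its control in the 6 libraries of both groups, and differences of effects in 12 or 24 libraries. Depth of 15932737 to 24798761 fragments covers counting error only.

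The members, the gene lists and the tests were chosen with earlier results of these data known. Every library's value was given for members past the limit in any comparison, the 3 with the largest log2 fold change in each co-culture comparison, the transcription factors and the highest and lowest member. Other tested lists were further interferon-stimulated genes, interferon genes, receptors with JAK-STAT genes, inhibitors, nucleic acid sensors and markers of other cells. Same-numbered standard libraries deviated together from their group means (correlations of 0.48 to 0.82), so the numbers were taken to pair them, and in the standard model the fit with the number as a block is given beside its results. Alternatives were pseudocounts of 1 and 0.1, other filters, 2 scalings, no trend, a block, limma-voom on recovered fragments, 1 fit over all libraries, and libraries left out. Figures were drawn with matplotlib 3.10.9 in Python 3.11.15, with numpy 2.4.6 and pandas 2.3.3. Promoters came from RefSeq, GRCm38.p6.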

Additional observations from a re-analysis of the deposited data

How the results depend on the processing

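The counts of members called in the inverse model depended on the processing, and the cause was not tested. At 24 h, where 2 were called, there were 0 with no filter on low values, 5 with median-ratio scaling or quantile normalization, 1 without the intensity trend or with the replicate number as a block, 6 with limma-voom on recovered fragments, 0 with all 24 libraries in 1 fit, 0 to 10 with 1 library left out, and 0, 0 and 8 with replicate 1, 2 or 3 left out of both groups. At 72 h, 4 were called, with 427 genes up and 1251 down over all genes. There were 2 with no filter (204 up and 684 down over all genes) and 2 with a mean FPKM above 5 (380 and 1150). There were 3 with the replicate number as a block (260 and 642) and 1 with all 24 libraries in 1 fit (201 and 696). With 1 library left out there were 0 to 5. With replicate 1, 2 or 3 left out of both groups there were 0 (0 and 0), 2 (228 and 642) and 1 (221 and 493). The fit without replicate 1 thus called no gene at all. For the inverse controls over time, where 2 were called, there were 1 with no filter, with a mean FPKM above 5, without the trend or with the block, 0 with all 24 libraries in 1 fit and 1 to 3 with 1 library left out. For the change of the inverse effect over time, where 0 were called, leaving out 1 library gave 0 to 2. The other 8 counts of called members were 0 under every alternative run. Leaving replicate numbers out of both groups was tried only after seeing the data. In the inverse model same-numbered libraries did not deviate together (correlations of -0.17 to 0.15), so a call lost under the block there is not a weaker effect. The replicate block changed no call of a member in the standard model. Members not above 1 FPKM in at least 3 libraries of a fit were not tested in it.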

Other observations

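Ifitm3 and the MHC class I genes H2-K1 and B2m, chosen after their values were seen, are outside the 42 and belong to the other list of 86 interferon-stimulated genes. In the inverse model at 24 h all 3 lay above the median of that list, 0.24, where 0 of 64 tested were called. Ifitm3, which blocks the fusion of virus with the cell membrane, was at 312, 347 and 356 FPKM in the inverse 24 h controls and 726, 485 and 439 FPKM in the co-cultures, without overlap (log2 fold change 0.67, SE 0.17, adjusted p = 0.0981, limma). H2-K1, a class I heavy chain, was at 121, 133 and 128 FPKM in these controls and 222, 169 and 171 FPKM in the co-cultures, also without overlap (0.55, SE 0.12, adjusted p = 0.0587, limma). B2m, the light chain, was at 412, 480 and 455 FPKM in the controls and 768, 519 and 429 FPKM in the co-cultures, and the groups overlapped (0.31, SE 0.19, adjusted p = 0.522, limma). At 72 h in the inverse model the log2 fold changes were 0.12 for Ifitm3, -0.17 for H2-K1 and -0.31 for B2m, and all 3 pairs of groups overlapped. In the 3 genes the inverse 24 h co-culture replicate 1 was the highest library of its group.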
